A study of Mus musculus with 6 samples.

Results

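The 9 genes described here are regulators of blood stem cells and multipotent progenitors: Sox4, Meis1, Hoxa9, Mecom, Hlf, Mllt3, Msi2, Myb and Mycn. They were taken by gene name from the deposited table, and all 9 were found among its 52459 genes. The table holds 6 RNA-seq libraries of mouse megakaryocytic-erythroid progenitors (MEP), marrow cells that give rise to platelet-forming megakaryocytes and to red cells. In 3 libraries the mice were wild type (WT), and in 3 they were Tmprss6-/- (KO). Each library was 1 sorted pool of cells from 3 mice, gated as Lin-, cKit+, Sca-, Fc gamma receptor-, CD150+, CD105- and CD41-. Tmprss6 encodes a protease of the liver that restrains hepcidin, and its loss makes mice iron deficient, so the KO libraries measure progenitors of iron-deficient animals. The labels name no restriction of the deletion to a tissue, and the sources used here give neither strain nor age nor sex of the mice.

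Stem cells and multipotent progenitors keep open the choice between blood lineages through transcription factors that are shut down as cells commit. HOXA9 and MEIS1 are homeodomain proteins that bind DNA together. MECOM, a zinc finger protein, and HLF, a leucine zipper protein, mark and maintain the most primitive stem cells. MLLT3, a reader of acylated histones, MSI2, an RNA-binding protein, MYB, MYCN and the HMG box factor SOX4 act in progenitors more widely, and several of the 9 are drivers of leukaemia when overexpressed or fused. In the MEP compartment MYB is known for favouring erythroid over megakaryocytic output, and MLLT3, in human cells, for early erythroid and megakaryocytic commitment.

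The promoters of Sox4, Meis1 and Myb are shown because these genes had a lower level in KO than in the WT library of the same number in all 3 numbers. Mycn shared that pattern, but 78 bases of the window listed for it lie inside the gene as the deposited table gives it, against 14 for Sox4, 16 for Meis1 and 0 for Myb, and it is not printed. Each run is the 250 bases before the start site given by RefSeq (GRCm38.p6), on the gene's own minus strand. Capitals mark matches to 6 short motifs searched on both strands: AGATAA for the GATA factors, TGACAG for MEIS factors, TAACNG for MYB factors, CACGTG for the E-box, CCGGAAG for ETS factors and TATAAA for the box of that name.
Sox4: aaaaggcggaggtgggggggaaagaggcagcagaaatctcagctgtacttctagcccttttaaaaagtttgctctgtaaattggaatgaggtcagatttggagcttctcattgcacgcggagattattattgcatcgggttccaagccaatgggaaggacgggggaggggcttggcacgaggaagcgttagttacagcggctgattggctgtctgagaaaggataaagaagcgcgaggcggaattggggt
Meis1: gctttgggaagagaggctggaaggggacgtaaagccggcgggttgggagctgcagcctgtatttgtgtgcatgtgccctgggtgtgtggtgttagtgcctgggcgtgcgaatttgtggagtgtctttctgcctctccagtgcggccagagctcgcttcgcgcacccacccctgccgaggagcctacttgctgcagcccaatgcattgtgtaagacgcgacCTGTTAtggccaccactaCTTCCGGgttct
Myb: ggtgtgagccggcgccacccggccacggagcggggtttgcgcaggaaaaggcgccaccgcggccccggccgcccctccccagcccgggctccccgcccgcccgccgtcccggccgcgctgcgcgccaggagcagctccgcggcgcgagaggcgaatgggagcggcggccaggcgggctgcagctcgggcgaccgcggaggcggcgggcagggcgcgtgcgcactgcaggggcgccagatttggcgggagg

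The Sox4 window lies at chr13:28953700-28953949, that of Meis1 at chr11:19018970-19019219 and that of Myb at chr10:21160985-21161234. None of the 6 motifs is in the Sox4 or the Myb window. The Meis1 window holds 1 match to the MYB motif, 30 bases before the start site, and 1 to the ETS motif that follows it. The unprinted Mycn window holds 1 match to the MYB motif. Of all 32851 mouse promoter windows of this length, 19.8% hold the MYB motif and 6.91% the ETS motif, and a match is a description of the letters, not a binding site. G and C make up 81.2% of the Myb window, 59.6% of the Meis1 window and 50.8% of the Sox4 window, against a median of 52.4% over all windows.

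Total counts ran from 13402209 to 22986837 per library, and 3 counts, taken as the floor of detection, corresponded to 0.138 to 0.220 CPM (counts scaled to a common library size after TMM). Tmprss6 gave 0 to 5 counts in every library of either genotype, so it checked no label. All 11 MEP marker genes were detected in each library, with sums of 8678 to 10099 CPM in the WT and 6866 to 9934 CPM in the KO libraries. Library KO 2 stood apart, with summed markers of neutrophil precursors at 3401 CPM (at most 378 CPM in the other libraries), of eosinophils, basophils and mast cells at 7633 CPM (at most 752), of macrophages at 2216 CPM (at most 204) and of late erythroblasts at 5278 CPM (at most 374). The late erythroblast sum was also higher in KO 1 and KO 3, at 353 and 374 CPM, than in the WT libraries, at 133 to 229 CPM. Replicate 3 of both genotypes had the pattern of females, with 351 and 175 Xist counts and at most 1 Ddx3y count. The other 4 libraries had at least 872 Ddx3y counts. The 8 surface genes of stem cells and early progenitors, such as Cd34, Cd48 and Flt3, summed to 196 to 522 CPM in the WT libraries and 259 to 611 CPM in the KO libraries, so the ranges overlapped, but within each number the sum was higher in KO (522 and 611, 413 and 562, and 196 and 259 CPM). Cd48 made up most of each sum, at 364, 277 and 136 CPM in WT 1 to 3 and 436, 308 and 188 CPM in KO 1 to 3. Flt3 was lower in KO in number 1, and Esam and Cd27 in number 3. Of the 6 genes with enough counts for a test in replicates 1 and 3, 3 were higher in KO in each number. Among the 8, Fgd5 was at 0 in WT 1, WT 3 and KO 3, and Procr at 0 in WT 3 and KO 3.

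All 9 regulators were detected in all 6 libraries, but over a wide span of levels. Levels between genes are compared as CPM per kb of merged exon length. That length joins the exons of all annotated transcripts, from 1 transcript in Sox4 to 17 in Mecom. It can understate genes whose transcripts in these cells are shorter, and the transcripts used were not determined. The orders given below hold for this measure. In WT, Myb led at 45.4 ± 19.3 CPM per kb (SD, n = 3), followed by Sox4 at 34.4 ± 3.03 CPM per kb. The ranges of these genes overlapped, at 27.4 to 65.8 and 30.9 to 36.2 CPM per kb. Without scaling by length they were apart, at 245 to 588 CPM for Myb and 148 to 174 CPM for Sox4. Mycn came next at 13.2 ± 1.66 CPM per kb, Meis1 at 7.20 ± 2.14, Hoxa9 at 4.57 ± 0.548 and Mllt3 at 3.36 ± 0.181 CPM per kb. Meis1 and Hoxa9 overlapped with each other, and Mycn and Mllt3 were apart from their neighbours in this order. Msi2 at 1.04 ± 0.344 and Hlf at 0.690 ± 0.359 CPM per kb overlapped. Mecom, the factor of the most primitive stem cells, was lowest at 0.152 ± 0.0450 CPM per kb, with 19 to 57 counts per library. The order of the 9 genes by mean level was the same in KO.

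**Figure D1:**
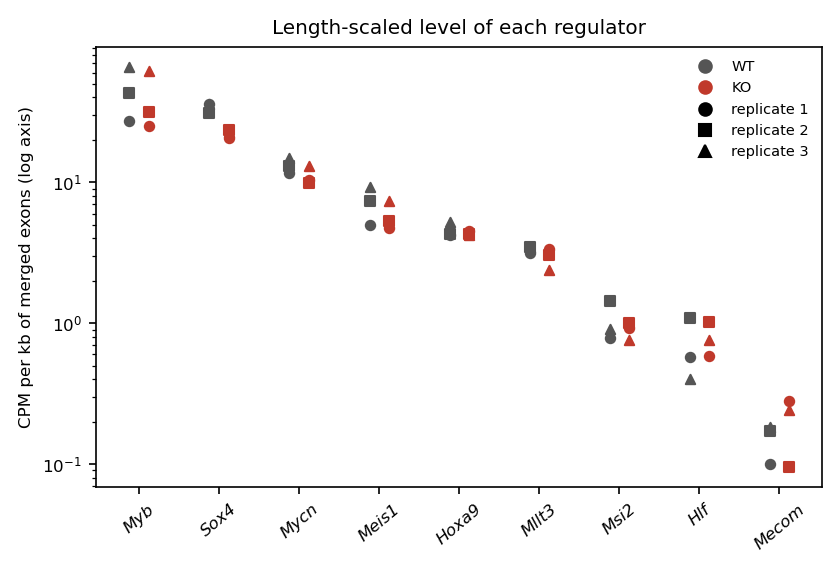
Level of each regulator in each library as CPM per kb of merged exons, on a log axis, for WT (grey) and KO (red), with the marker shape giving the replicate number. The genes are ordered by WT mean, from Myb at 45.4 to Mecom at 0.152 CPM per kb.

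Close relatives of the 9 were expressed at very unequal levels, which also bears on shared reads. Sox11, the nearest relative of Sox4, and Msi1, the paralog of Msi2, had 0 counts in all 6 libraries, and Meis2 at most 0.00516 CPM per kb. Sox12, the other close relative of Sox4, was at 3.91 ± 0.871 CPM per kb in WT. Myc was the dominant family member beside Mycn, at 352 ± 152 CPM per kb in WT, while Mycl was at 0.117 ± 0.1003. Mllt1, which takes the place of MLLT3 in elongation complexes, was at 18.1 ± 6.54 CPM per kb in WT, above Mllt3. Tef, a relative of Hlf, was at 5.96 ± 2.39 CPM per kb, and Prdm16, a relative of Mecom, at 0.408 ± 0.178. Among homeobox partners, Hoxa7 and Hoxa10 were at 2.22 ± 0.285 and 1.28 ± 0.348 CPM per kb. Of the 27 HOX and TALE genes listed beside Hoxa9 and Meis1, 9 passed the filter on low counts in the 6 libraries. Of the 10 other SOX genes listed, 4 did.

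Sox4 was the regulator whose level differed most clearly between the genotypes. Sox4 (ENSMUSG00000076431, chromosome 13, 28948919 to 28953713, minus strand), which encodes an HMG box transcription factor and is annotated as a single transcript of 1 exon, stood at 174, 148 and 173 CPM in WT 1 to 3 and at 98.5, 113 and 108 CPM in KO 1 to 3. Every KO library was below every WT library. The means were 165 ± 14.5 and 106 ± 7.33 CPM (SD, n = 3), so that KO was at 0.646 of the WT level in the fit of 6 libraries (log2 fold change -0.63, SE 0.24, edgeR adjusted p = 1.00, unadjusted p = 0.030). The 1 annotated gene that overlaps Sox4 had at most 1 count in any library.

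The call on Sox4 depended on which libraries were compared. When only replicates 1 and 3 were compared, with their number as a blocking factor, Sox4 fell by 0.75 on the log2 scale (SE 0.11, edgeR adjusted p = 0.0039; 6.82e-05 to 1.00 over the alternatives), a level in KO of 0.595 of WT. It ranked 28 of 13572 genes by p there. That comparison leaves out KO 2 and WT 2 and was chosen with earlier results of these data known. It rests on the differences within numbers 1 and 3 alone, and its SE leaves out the spread between numbers. Without the block on the same 4 libraries the log2 fold change was again -0.75, with an adjusted p of 1.00. With the block on all 6 libraries it was -0.63 (edgeR adjusted p = 0.995), and on the pairs 1 and 2 and the pairs 2 and 3 it was -0.60 and -0.52, both at an adjusted p of 1.00. Within numbers 1, 2 and 3 the KO minus WT differences in log2 CPM were -0.82, -0.39 and -0.67. The number that holds KO 2, the library with transcripts of other blood cells, had the smallest difference of Sox4. For Meis1, Myb and Mycn that number had the largest difference, at -0.48, -0.44 and -0.41. Sox4 was at a log2 fold change of -0.68 when KO 2 alone was left out (adjusted p = 1.00 by edgeR). The part of KO 2 in these values was not tested. Markers of other cells moved in the same comparison of replicates 1 and 3, though 0 of 10 macrophage and 0 of 9 megakaryocyte genes were called. There 5 of 9 tested late erythroblast genes and 1 of 8 lymphoid genes (Jchain) were called higher, against 0.258% of all genes. Called lower were 2 of 9 neutrophil precursor genes, 4 of 8 genes of eosinophils, basophils and mast cells, and 1 of 4 stroma genes, against 0.604% of all genes. The part of these other cells in the Sox4 result was not tested. In bulk samples, fewer cells of a type that expresses a gene and less RNA per cell cannot be told apart.

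**Figure D2:**
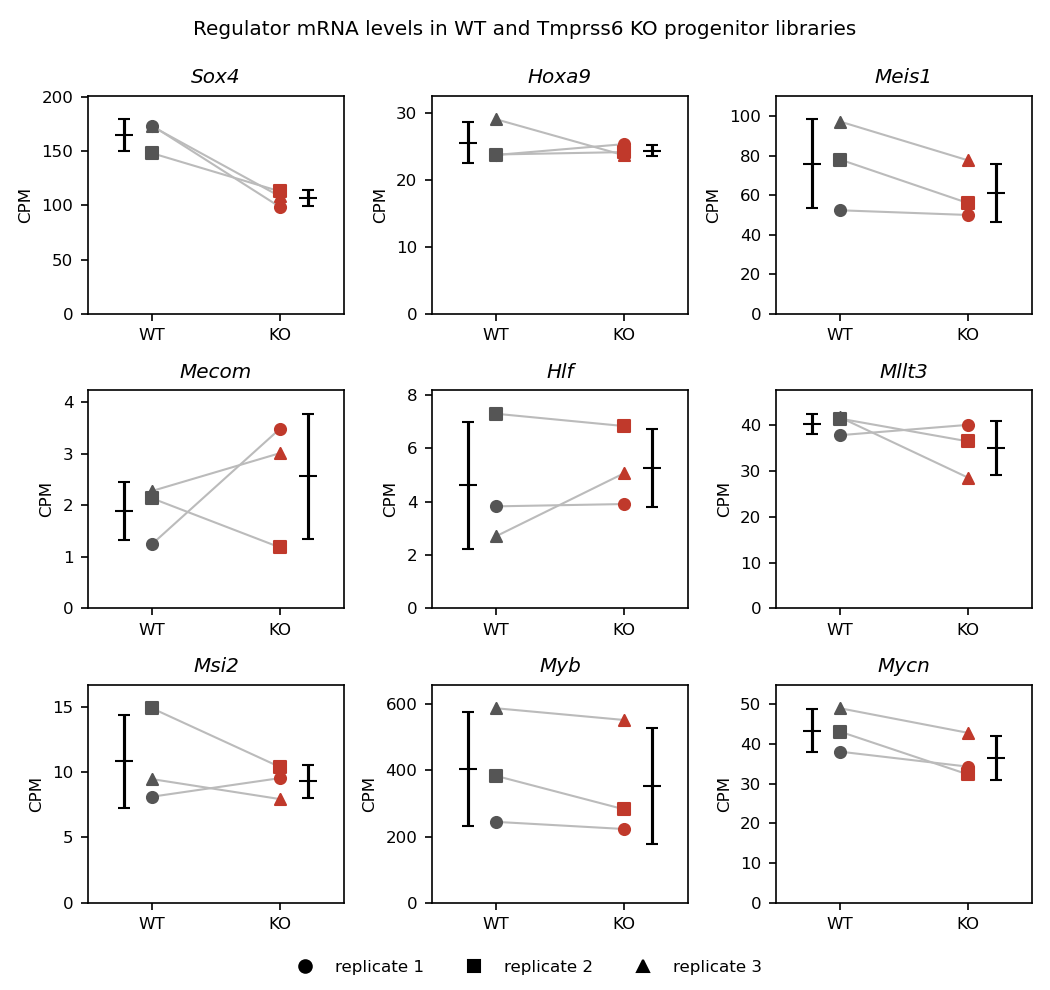
CPM of each regulator in the 3 WT (grey) and 3 KO (red) libraries, with lines joining libraries of the same replicate number and bars giving the mean ± SD. Sox4 has all KO libraries, at 98.5 to 113 CPM, below all WT libraries, at 148 to 174 CPM, while the groups of the other 8 genes overlap.

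None of the other 8 regulators passed a test in either comparison. Across the table, edgeR called 0 of 13453 genes in the 6 libraries (0%), with 234 at an unadjusted p under 0.05 (1.74%), while DESeq2 called 6 genes, none of them a regulator. Sox4 was the 1 regulator at an unadjusted p under 0.05 and lower in KO, as were 0.208% of all genes, and the 1 whose KO libraries all lay below WT, as did 1.75% of all genes. Over replicates 1 and 3 it was 1 of 9 regulators called lower, against 0.604% of 13572 genes called lower, 0.258% called higher and 0.862% called in either direction. As the 9 were chosen with results of these data known, these counts describe them and support no more.

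Among the homeobox pair, Meis1 (ENSMUSG00000020160, chromosome 11, 18879817 to 19018985) was at 52.3, 78.0 and 97.2 CPM in WT 1 to 3 and at 49.96, 56.0 and 77.6 CPM in KO 1 to 3. It was lower in KO in each number, but the groups overlapped widely (log2 fold change -0.31, SE 0.33, adjusted p = 1.00 by edgeR). Its log2 fold change over replicates 1 and 3 was -0.20 (SE 0.12, edgeR adjusted p = 0.54). Annotated genes that overlap Meis1 had counts of up to 9.25% of those of Meis1 in a library, and the library kit does not mark the strand. Hoxa9 (ENSMUSG00000038227, chromosome 6, 52223100 to 52231089) was the most even of the 9 genes, at 23.7, 23.8 and 29.0 CPM in WT and 25.3, 24.1 and 23.7 CPM in KO. Its log2 fold change was -0.065 (SE 0.26), and -0.10 (SE 0.20) in replicates 1 and 3.

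The stem cell factors Mecom and Hlf were the least abundant and had the widest errors. Mecom (ENSMUSG00000027684, chromosome 3, 29951296 to 30548008) was at 1.25, 2.14 and 2.28 CPM in WT and at 3.49, 1.18 and 3.01 CPM in KO. KO 1 and KO 3 were above all WT libraries and KO 2 was below them. Its log2 fold change was 0.44 (SE 0.58) in the 6 libraries and 0.94 (SE 0.54, edgeR adjusted p = 0.50) in replicates 1 and 3. The 7 annotated genes that overlap Mecom together had counts of up to 9.38% of those of Mecom in a library. None of them had more than 2 counts. Hlf (ENSMUSG00000003949, chromosome 11, 90336536 to 90390895) was at 3.83, 7.30 and 2.70 CPM in WT and at 3.91, 6.84 and 5.07 CPM in KO, with both libraries numbered 2 highest in their groups. Its log2 fold change was 0.19 (SE 0.51), and 0.45 (SE 0.43, edgeR adjusted p = 0.74) in replicates 1 and 3. Hlf had 38 to 110 counts per library, and the smallest difference that could be detected was not worked out.

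The chromatin reader and the RNA-binding regulator had no call. Mllt3 (ENSMUSG00000028496, chromosome 4, 87769925 to 88033364) was at 37.9, 41.5 and 41.8 CPM in WT and at 40.1, 36.5 and 28.6 CPM in KO, lower in numbers 2 and 3 and higher in number 1 (log2 fold change -0.20, SE 0.26; in replicates 1 and 3, -0.23, SE 0.18). Msi2 (ENSMUSG00000069769, chromosome 11, 88339382 to 88718513) was at 8.12, 14.9 and 9.46 CPM in WT and at 9.54, 10.4 and 7.93 CPM in KO. WT 2 was its highest library, and its log2 fold change of -0.22 (SE 0.38) was -0.0087 (SE 0.30) in replicates 1 and 3.

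Myb and Mycn were each lower in KO in all 3 numbers, in groups that overlapped. Myb (ENSMUSG00000019982, chromosome 10, 21124935 to 21160984) was at 245, 384 and 588 CPM in WT 1 to 3 and at 223, 283 and 553 CPM in KO 1 to 3. In both genotypes the library numbered 3 was highest and that numbered 1 lowest. Its log2 fold change was -0.20 (SE 0.46, edgeR adjusted p = 1.00), and -0.11 (SE 0.099, edgeR adjusted p = 0.71) in replicates 1 and 3. Mycn (ENSMUSG00000037169, chromosome 12, 12936093 to 12941914) was at 38.1, 43.1 and 49.0 CPM in WT and at 34.3, 32.3 and 42.8 CPM in KO. Its difference was -0.25 on the log2 scale (SE 0.26), and -0.18 (SE 0.15, edgeR adjusted p = 0.71) in replicates 1 and 3.

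**Figure D3:**
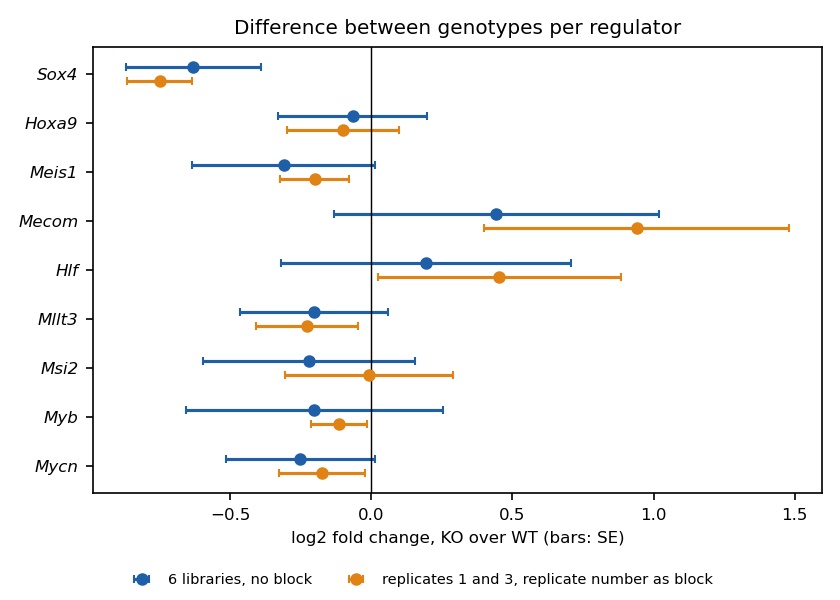
Log2 fold change of KO over WT for each regulator in the fit of 6 libraries (blue) and in replicates 1 and 3 with the replicate number as a block (orange), with bars of 1 SE. Sox4 stands at -0.63 and -0.75, and the interval of 1 SE of Hoxa9 and Msi2 includes 0 in both fits.

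In total, 7 of the 9 regulators had a log2 fold change below 0 in the 6 libraries, as did 50.7% of all genes tested. The median of the 9 was -0.20, against -0.0048 over all genes. The count over replicates 1 and 3 was again 7 of 9 (51.5% of all genes), with a median of -0.11 against -0.010. Sox4, Meis1, Myb and Mycn, 4 of the 9, were lower in KO in each number, as were 13.3% of all genes. Number by number, 4, 8 and 7 of the 9 were lower in KO, with medians of the KO minus WT difference in log2 CPM of 0.031, -0.41 and -0.25, so the lower median rested on numbers 2 and 3. Number 2 holds KO 2, the library with transcripts of other blood cells. The MEP markers summed to 6866 CPM in KO 2 against 9667 CPM in WT 2. In number 1 the sums were 9737 CPM in KO and 8678 CPM in WT, and in number 3 they were 9934 and 10099 CPM. The part of KO 2 in the count and median of number 2 was not tested.

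The regulators also varied between the replicate numbers. Averaged over WT and KO, log2 CPM of Myb spanned 1.29 between the numbers, against a mean KO minus WT difference of -0.22 within them. For Meis1 the span was 0.76 against -0.29, and for Hlf 0.91 against 0.27. A span over 3 means tends to be wider than a single mean difference even without any effect. It was the larger in 92.2% of all 13453 genes, with a median span of 0.89 and a median difference of 0.18 in size, and in 7 of the 9 regulators, so this count says nothing particular of them. In Sox4 the span was 0.081 and the difference -0.63 ± 0.22 (SD, n = 3 numbers), and in Mllt3 they were 0.17 and -0.22 ± 0.32. Myb and Meis1 were highest in number 3, the female one, in both genotypes, and for that number sex and any other property of the pools cannot be told apart.

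**Figure D4:**
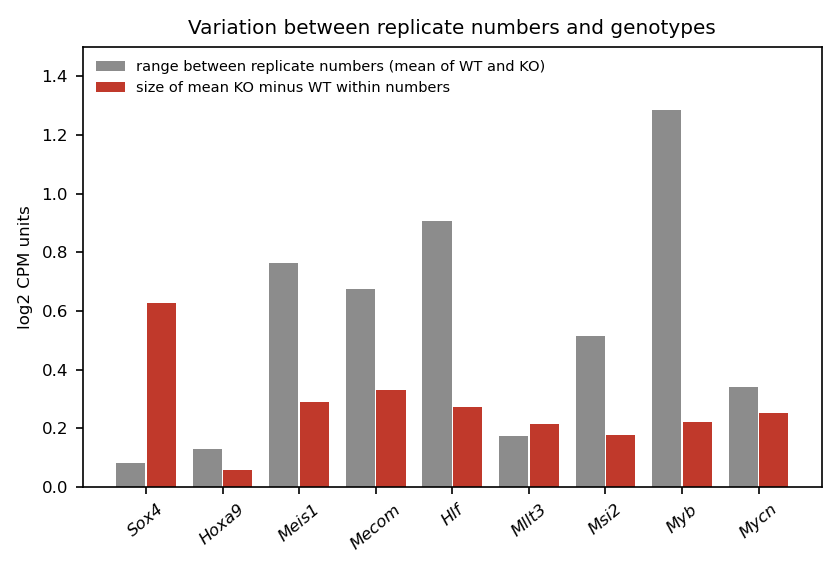
For each regulator, the range between the 3 replicate numbers of the mean log2 CPM of WT and KO (grey) and the size of the mean KO minus WT difference within numbers (red). Myb has the widest range (1.29, with a difference of 0.22 in size) and Sox4 the narrowest (0.081, with a difference of 0.63), and over all genes the range is the larger in 92.2%.

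Other genes of stem cells and progenitors went in both directions. Of 44 listed, 38 were tested, and in the 6 libraries 17 were higher and 21 lower in KO, with 0 called and a median log2 fold change of -0.028. Over replicates 1 and 3, 13 were higher and 25 lower, again with 0 called and a median of -0.12, close to the -0.11 of the 9 regulators. In all 3 numbers, 12 of the 38 were lower in KO and 4 were higher, against 13.3% and 11.6% of all genes. The bridging factor gene Lmo2 was at 403, 468 and 460 CPM in WT and at 403, 313 and 383 CPM in KO, with WT 1 and KO 1 almost level and a difference of -0.28 on the log2 scale (SE 0.26, adjusted p = 1.00 by edgeR). Cd34, a surface protein of early progenitors, was higher in KO in each number, at 75.7, 65.9 and 26.2 CPM in WT and at 95.4, 105 and 37.8 CPM in KO. The log2 fold change of Cd34 was 0.50 (SE 0.51, adjusted p = 1.00 by edgeR), and 0.42 over replicates 1 and 3 (SE 0.13, adjusted p = 0.17). Plxnc1, a semaphorin receptor gene, and Kit, the gene of the stem cell factor receptor used in the sort, were lower in KO in each number. Over replicates 1 and 3 the log2 fold change of Plxnc1 was -0.45 (SE 0.11, adjusted p = 0.065 by edgeR; 0.029 to 1.00 in other settings), and that of Kit -0.36 (SE 0.092, adjusted p = 0.086; 0.036 to 1.00). Ly6a, which encodes the gated-out Sca-1, was at 1.35 to 2.69 CPM in WT and at 3.60 to 13.9 CPM in KO, highest in KO 2. Its log2 fold change was 1.77 (SE 0.66, adjusted p = 1.00 by edgeR), and 1.08 over replicates 1 and 3 (SE 0.50, adjusted p = 0.37), with a lowest value of 0.83 in other settings. The part of other cells in KO 2 in this value was not tested.

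**Figure D5:**
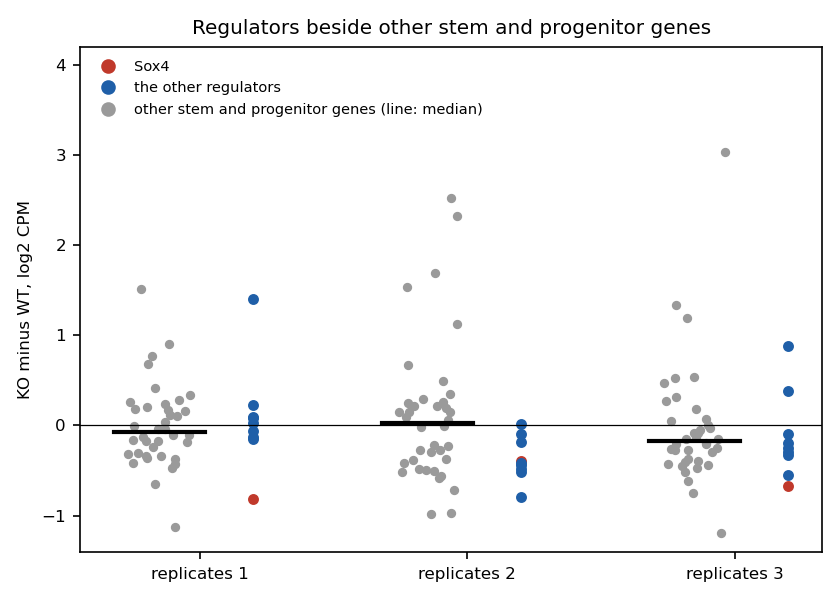
KO minus WT difference in log2 CPM within each replicate number for Sox4 (red), the other 8 regulators (blue) and 38 other stem and progenitor genes (grey, line at the median). The grey medians are -0.072, 0.029 and -0.17, and Sox4 lies at -0.82, -0.39 and -0.67.

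Relatives of the regulators, and partners of MLLT3, gave no call in either comparison at the main settings. In the SOX list 2 of 4 tested genes were lower in the 6 libraries, and Sox12 had a log2 fold change of 0.11 (SE 0.33). Sox5, a SOX factor known from cartilage and nerve cells, was lower in KO in each number, with means of 14.6 ± 3.42 CPM for WT and 9.12 ± 3.27 for KO (SD, n = 3) and a difference of -0.68 on the log2 scale (SE 0.40, adjusted p of edgeR 1.00). Among 9 HOX and TALE genes 5 were lower and 4 higher, and the homeobox gene Hoxa7 had a log2 fold change of -0.31. Of 9 PRDM genes 6 were lower, and Prdm16 had a log2 fold change of -0.51 (SE 0.62). Of 3 genes in the list of Hlf relatives and Nfil3, 2 were lower. Of 13 partners of MLLT3 in elongation and histone H3K79 methylation, 8 were lower in the 6 libraries (median -0.10) and 10 in replicates 1 and 3 (median -0.20), with 0 called. Kmt2a, the histone methyltransferase gene fused to Mllt3 in leukaemia, was lower in each number, with a log2 fold change of -0.45 (SE 0.58) and of -0.87 over replicates 1 and 3 (SE 0.22, adjusted p = 0.085 by edgeR, but 0.048 without the filter on low counts). Of 11 genes of the MYC and MAX network, 6 were lower, among them Myc with a log2 fold change of -0.14 (SE 0.45). Mycl was at 10.01 CPM in KO 2 and at most 1.96 CPM in the other libraries. Of 4 tested genes of the MYB list, Mybl2, a cell cycle gene, was higher in KO in each number. It stood at 32.7, 21.8 and 35.6 CPM in WT and at 48.7, 103 and 55.6 CPM in KO, which is 1.20 on the log2 scale (SE 0.38, adjusted p = 1.00 by edgeR) and 0.61 over replicates 1 and 3 (adjusted p = 0.073, but 0.049 in limma voom and 0.040 with the newer quasi-likelihood method).

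Of 10 genes reported as targets of HOXA9 and MEIS1, 6 were lower in the 6 libraries (50.7% of all genes). In replicates 1 and 3, 7 were lower (51.5% of all genes) and 1 was called lower (0.604%). That gene was Trib2, a pseudokinase gene, at 183, 314 and 624 CPM in WT 1 to 3 and at 118, 170 and 456 CPM in KO 1 to 3. It fell by 0.54 on the log2 scale in replicates 1 and 3 (SE 0.10, edgeR adjusted p = 0.022; 0.00099 to 1.00 over the alternatives), and upper-quartile scaling ended the call (adjusted p = 0.13). In the 6 libraries its log2 fold change was -0.59 (SE 0.61, adjusted p = 1.00 by edgeR), and in both genotypes it was highest in number 3 and lowest in number 1. Of 14 targets of MYC family factors, 8 were higher and 6 lower in the 6 libraries (median 0.033), where 50.7% of all genes were lower. In the comparison of replicates 1 and 3, which leaves out number 2, 13 were higher and 1 lower (median 0.20), where 51.5% of all genes were lower. Only 2 of the 14 were higher in KO in each number, against 11.6% of all genes. The median over the 6 libraries was -0.0080 with the replicate block and -0.011 in limma voom. In replicates 1 and 3, 1 of the 14 was called higher, against 0.258% of all genes. That gene was Tfrc, which encodes the transferrin receptor and is known to be controlled by iron as well. It was at 65.5 to 100.5 CPM in WT and at 204 to 476 CPM in KO, without overlap, and rose by 1.70 on the log2 scale in replicates 1 and 3 (SE 0.11, edgeR adjusted p = 1.7e-06). Its adjusted p in the other settings lay between 1.57e-33 and 1.00.

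The genes whose pattern over the 6 libraries was most like that of Sox4, among 10008 with a mean of at least 5 CPM, were 4930481A15Rik, Vgll4 and Tbc1d23. Their root-mean-square differences from Sox4 in centred log2 CPM were 0.14, 0.14 and 0.15. All 3 genes had their KO libraries below their WT libraries, Vgll4 at 34.6 to 38.7 against 46.8 to 50.5 CPM. That follows largely from choosing genes by their likeness to Sox4 over these same libraries, and it is no separate finding. For Tbc1d23 the gap was narrow, as its highest KO library (KO 2, 19.2 CPM) was just under its lowest WT library (WT 2, 19.5 CPM). None of the 3 genes was called in either comparison.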

How the data were processed

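Per the labels' protocols, RNA of sorted cells was amplified with SMART-Seq v4, and Nextera XT was used for the libraries, which carry no strand information. The authors deposited read counts per Ensembl gene, whole numbers without scaling. Per the submitters' processing notes, FastQC 0.11.5, STAR 2.5.3a and edgeR were used, and the builds named are GRCm38.p3 and GRCh38.p3. Which read counter was used, and how it treated strand, overlapping genes and multiply mapped reads, is not given in the sources used here. Coordinates are those of the deposited table.

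Counts were filtered by filterByExpr in edgeR 4.0.16 (minimum count 10, minimum total 15), scaled by TMM and compared with the quasi-likelihood test, two-sided, with Benjamini-Hochberg adjustment over all genes and a threshold of 0.05, in R 4.3.3. Fold changes are KO over WT. Log2 CPM add a prior count of 2. The same test, blocked on the replicate number, was fitted to replicates 1 and 3, where it borrows a prior of 14.5 degrees of freedom. Samples of the same number deviated together from their group means (correlations across genes of 0.53, 0.16 and 0.63 for numbers 1 to 3), and no label says what the numbers mean, so this pairing comes from the data. DESeq2 1.42.0 and limma voom 3.58.1 were alternatives. Exon lengths came from GENCODE M21 (GRCm38) and matched all 9 genes, as did the RefSeq promoters. The floor of 3 counts covers counting error only, while SDs, and SEs of the unblocked fit, include the spread between pools. SEs of the blocked fits leave out the spread between numbers. In replicates 1 and 3 they rest on the differences within numbers 1 and 3 and on the prior of 14.5 degrees of freedom.

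The 9 genes, the gene lists, the comparison of replicates 1 and 3 and the rule for naming genes (the 9, their paralogs, called genes and up to 3 genes of smallest p per list, and the 3 nearest patterns of Sox4) were chosen with earlier results of these data known. Some genes named by the rule are left out, and Cd34 beside its list of stem cell genes, Plxnc1 and Kit were named after their values were seen. The fits were tested on simulated data.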

Additional observations from a re-analysis of the deposited data

How the results depend on the processing

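In the 6 libraries, 0 regulators were called under each of the 14 alternatives, and the genome-wide count was 0 except in DESeq2 (6 genes) and in DESeq2 with the replicate block (24), an alternative added after seeing the data. The replicate block gave 0 genes in edgeR, 476 at an unadjusted p under 0.05, and leaving out 1 library gave 0 genes each time. Over these alternatives the log2 fold change of Sox4 stayed between -0.70 and -0.58, with adjusted p of 0.13 to 1.00. In replicates 1 and 3 the call of Sox4 held in the 6 alternatives that changed the tool, scaling or filter there (adjusted p 6.82e-05 to 0.045), while the genome-wide count was 196 in limma voom, 64 with RLE scaling, 31 with upper-quartile scaling, 190 without the filter and 226 with the newer quasi-likelihood method, against 117. DESeq2 called 107 genes there, 44.9% higher in KO against 29.9% in edgeR. The call was lost, with 0 genes and 0 regulators, without the replicate block, with the block on all 6 libraries and on the pairs 1 and 2. On the pairs 2 and 3, which with the pairs 1 and 2 were added after seeing the data, 99 genes and 0 regulators were called. All 99 were higher in KO, against 29.9% of the genes called in replicates 1 and 3. Leaving out 1 library of the 4 was not run, as the block then leaves no residual degrees of freedom.

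Directions turned in genes that had no call in the comparison concerned. Over the 6 fits that left out 1 library, the log2 fold change ran from -0.12 to 0.039 for Hoxa9, from -0.076 to 0.70 for Hlf, from -0.40 to 0.087 for Msi2, from -0.69 to 0.17 for Myb, from -0.63 to 0.27 for Myc, from -0.088 to 0.27 for Sox12, from -1.10 to 0.23 for Kit, from -1.36 to 0.41 for Plxnc1 and from -1.39 to 0.00030 for Trib2. The last 3 were highest without WT replicate 3. In replicates 1 and 3, Msi2 was at 0.015 in limma voom and 0.013 with the newer method, and Sox12 at -0.0013, -0.021 and -0.00042 in limma voom, without the filter and with the newer method. On the pairs 1 and 2, Hoxa9 was at 0.059 and Hlf at -0.031, and on the pairs 2 and 3 Mecom was at -0.20. The cause was not tested. Mecom and Hlf had the fewest counts of the 9, at 19 to 57 and 38 to 110 per library.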
